A study of Mus musculus with 9 samples.

Results

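Laminins, fibronectin and the integrins that bind them were measured in mouse epiblast-like cells held in 3 culture states. The genes were every row of the count table named as a laminin chain (Lama, Lamb or Lamc and a digit), as an integrin alpha chain (Itga) or beta chain (Itgb), together with Fn1, Vtn, Nid1 and Nid2. They numbered 38 of 23453 genes and comprised 11 laminin chains, 16 integrin alpha chains, 7 integrin beta chains, the nidogens Nid1 and Nid2, fibronectin (Fn1) and vitronectin (Vtn). The rule reads gene names only.

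A laminin is a trimer of one alpha, one beta and one gamma chain, secreted by epithelial cells and assembled into the sheet below them, the basement membrane, where nidogens link it to type IV collagen. Integrins are receptors made of one alpha and one beta chain that span the plasma membrane, bind these matrix proteins outside the cell and couple to actin inside it. In the mouse embryo the epiblast epithelium rests on such a sheet, which is breached at the primitive streak when cells leave to form mesoderm, and fibronectin lies along the path of the migrating cells.

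EpiLCs were made from naive mouse embryonic stem cells by 48 h of culture with FGF2 and Activin A in N2B27 medium containing the serum replacement KSR. They were harvested then (EpiLC), or grown for a further 24 h in basal N2B27 (aEpiLC), or for as long with CHIR99021, a GSK3 inhibitor that activates Wnt signalling, at 3 µM and Activin A at 20 ng/ml (pEpiLC). The doses are those of the study's methods, which keep KSR in the medium of both later states, whereas the labels name it for EpiLCs only. In the study's naming, a stands for anterior and p for posterior epiblast. Both later states descend from EpiLCs, so both differ from EpiLC in age as well as in medium, and only aEpiLC and pEpiLC share their time in culture. The cells are wild-type in the study's text and are cultured cells, although the labels give their tissue as embryo. Each state had 3 replicate libraries, 9 in all, and the labels do not say whether replicates came from separate cultures, so the p-values measure the spread between these libraries only.

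Total counts ran from 20560564 to 23417917 per library, and at this depth 3 counts, taken as the detection limit, equalled 0.131 to 0.144 CPM (read counts relative to library size, TMM-normalised for composition). The epiblast markers Pou5f1, Fgf5, Pou3f1, Otx2, Dnmt3b and Utf1 summed to between 4438 and 4750 CPM in EpiLCs, 4122 and 4343 CPM in aEpiLCs, and 1810 and 3088 CPM in pEpiLCs. Dnmt3b, with the highest mean of these, had 2492 to 2798 CPM in EpiLCs and 747 to 1608 CPM in pEpiLCs. Pou3f1, Otx2 and Utf1 were also lower in every pEpiLC library than in any EpiLC library. Pou5f1 had 792, 1076 and 1018 CPM in pEpiLCs and 1104 to 1127 CPM in EpiLCs. Fgf5 was higher in pEpiLCs (161 to 180 CPM) than in EpiLCs (76.4 to 89.7 CPM). Primitive streak and mesoderm markers (8 genes) stayed between 7.40 and 10.1 CPM in the EpiLC and aEpiLC libraries and reached 615 to 2727 CPM in pEpiLCs. The library labelled pEpiLC replicate 1 stood apart from replicates 2 and 3, with the lowest epiblast sum and the highest streak sum of the 3. Mesp1, a mesoderm regulator, had 71.4 CPM in that library and at most 0.0931 CPM in replicates 2 and 3, and the 10 markers of extraembryonic endoderm summed to 64.9 CPM there against 4.03 and 5.22 CPM, through Gata6 and Gata4, while Sox7, Thbd and Apoa1 had at most 0.281 CPM in every library. The 6 feeder fibroblast markers summed to between 18.5 and 51.1 CPM over all libraries, highest in aEpiLCs. The naive stem cell list summed to between 20.01 and 39.3 CPM, the endothelial list to between 5.26 and 22.7 CPM, the trophoblast list to between 5.43 and 16.3 CPM and the blood cell list to between 4.51 and 7.32 CPM, and Cdh5, Elf5, Ptprc and Csf1r did not exceed 3 counts in any library. The 6 definitive endoderm markers summed to at most 2.90 CPM outside pEpiLCs and to between 47.2 and 171 CPM within them, and the 6 anterior neural markers to between 56.8 and 67.4 CPM in EpiLCs, 102 and 109.9 CPM in aEpiLCs and 12.1 and 35.2 CPM in pEpiLCs. Nearly all of the anterior neural sum was Sox2, also a pluripotency factor (54.7 to 64.8, 98.4 to 105 and 11.6 to 34.8 CPM in that order). Pax6 had 0.509 to 0.653 CPM in EpiLCs and 1.83 to 2.16 CPM in aEpiLCs, and Sox1 overlapped between these states. The part of these differences in the results below was not tested, and any laminin, nidogen or integrin gene whose call changed without pEpiLC replicate 1 is named where it is described below.

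Each pair of states was compared on its own 6 libraries with edgeR's quasi-likelihood test, and a call required a Benjamini-Hochberg adjusted p below 0.05, over all genes tested, with a log2 fold change of 1 or more in either direction. In aEpiLCs relative to EpiLCs, 7 of the 33 genes that passed the filter on low counts were called higher, among them Itga1, Itga4, Itga9, Itgb8, Lama1 and Lama4, where 7.25% of all 15301 genes tested were called higher. Itgal, Itgam and Lama3 were called lower, 3 of 33 against 5.24% of all genes. Without the limit on fold change 12 of the 33 rose and 7 fell, against 24.0% and 22.6% of all genes, and the median log2 fold change was 0.05 for the 33 genes and 0.00 for all genes.

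In pEpiLCs relative to EpiLCs, 6 of 33 genes tested were called higher (Itga1, Itga8, Itga9, Itgb2, Lamc3 and Nid1) and 5 lower (Itga3, Itga6, Itgal, Itgam and Lama3), where 7.71% and 8.13% of all 15288 genes were called. Without the fold limit the numbers were 13 and 8 of 33, beside 22.8% and 21.4% of all genes, with a median log2 fold change of 0.20 against 0.02 for all genes. Without EpiLC replicate 3, 3 were called higher, since Itga8, Lamc3 and Nid1 no longer passed. Between the 2 states of equal age, Itga1 and Itgb2 were called higher in pEpiLCs than in aEpiLCs, and Itga3, Itga4 and Itga6 were among those called lower, 2 and 4 of 32 tested, with 2.55% and 4.74% of all 15198 genes called in these directions. Without the fold limit there were 3 and 6 of 32, beside 6.28% and 9.30%, and the medians were -0.09 for the 32 genes and 0.01 for all genes. The count of 2 genes higher in pEpiLCs fell to 1 without pEpiLC replicate 3, aEpiLC replicate 1 or aEpiLC replicate 2, and to 0 without aEpiLC replicate 3, where 3 genes still had an unadjusted p below 0.05 in edgeR (DESeq2 called 3 with all libraries). The comparisons share libraries with each other and are not independent.

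Of the 38 genes, 16 were called in at least 1 comparison, 18 were tested and never called, and 4 (Itga11, Itga2, Lama2 and Vtn) had too few counts to be tested. A gene could pass the filter through the state in which it was high.

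**Figure D1:**
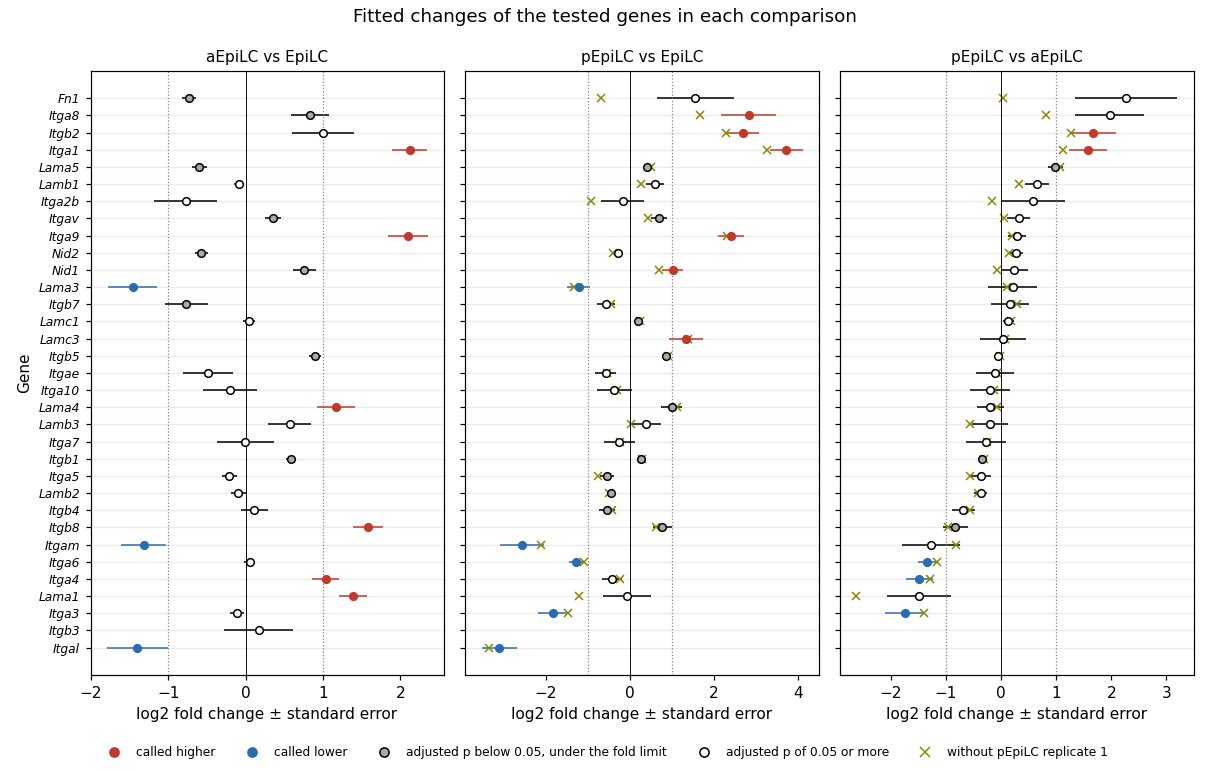
Fitted log2 fold changes (horizontal axis, with standard errors as bars) of 33 genes tested in at least 1 comparison, 1 panel per comparison, 3 libraries per state. Filled coloured points mark called genes, dotted lines the limit on fold change and crosses the value without pEpiLC replicate 1, which moved from 2.27 to 0.03 for Fn1 and from -1.49 to -2.63 for Lama1 in the panel of pEpiLC against aEpiLC.

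Because pEpiLCs received a Wnt agonist, the stretches before the starts of 4 genes on which the results turn were read for the core letters that TCF/LEF factors of the Wnt pathway bind and for an E-box, the site class bound by Snail and other repressors of epithelial genes. They are shown 5′ to 3′ on the gene's own strand, from RefSeq on GRCm38.p6, and end directly before the start of the gene in RefSeq or GENCODE, whichever lies further upstream. Lama5 was the main laminin alpha chain, Itga3 was lower in pEpiLCs, and Itga1 and Itga8 were higher. Capitals mark the E-box CAGGTG (or its reverse complement) and the TCF/LEF core, CTTTG followed by 2 letters that are each A or T, on either strand.
Lama5: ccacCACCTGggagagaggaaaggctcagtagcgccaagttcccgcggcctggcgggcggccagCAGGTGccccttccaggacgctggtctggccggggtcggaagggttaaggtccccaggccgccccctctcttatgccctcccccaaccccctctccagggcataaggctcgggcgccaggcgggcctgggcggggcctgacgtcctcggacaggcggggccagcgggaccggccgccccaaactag
Itga3: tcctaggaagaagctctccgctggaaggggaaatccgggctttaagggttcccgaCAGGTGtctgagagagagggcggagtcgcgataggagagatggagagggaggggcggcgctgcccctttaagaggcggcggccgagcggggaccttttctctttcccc
Itga1: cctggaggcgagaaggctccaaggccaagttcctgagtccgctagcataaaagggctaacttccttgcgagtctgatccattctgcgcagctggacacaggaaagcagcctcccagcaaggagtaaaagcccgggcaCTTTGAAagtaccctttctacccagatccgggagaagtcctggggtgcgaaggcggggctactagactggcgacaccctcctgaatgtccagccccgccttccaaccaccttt
Itga8: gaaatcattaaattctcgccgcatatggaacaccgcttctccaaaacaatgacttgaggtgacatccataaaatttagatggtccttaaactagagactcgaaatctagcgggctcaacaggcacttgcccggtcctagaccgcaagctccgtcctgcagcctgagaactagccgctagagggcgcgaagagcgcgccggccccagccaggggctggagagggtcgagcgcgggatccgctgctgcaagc
These stretches lie at chr2:180225860-180226109, chr11:95076802-95076964, chr13:115101965-115102214 and chr2:12301945-12302194, all on the minus strand. Promoter windows of 300 bases, 250 before and 50 after the start, were at hand for 23 of the 38 genes, 25 windows in all. A TCF/LEF core stood in the windows of Itga1 and Itga10, 2 of 25, against 16.9% of all 32851 windows of the same length, and the E-box CAGGTG in 8 of 25 against 20.2%. A GC box (GGGCGG), searched on both strands and free to overlap with the other motifs, stood in 13 of 25 windows against 35.7% of all, and the median GC content was 59.3% in these windows and 52.7% in all. Such a match describes letters and not a bound site, and windows without one say nothing about the factor.

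Lama5 (chromosome 2, 180176373 to 180225859 on GRCm38), an alpha chain of embryonic and epithelial basement membranes, was the most abundant laminin chain and moved in opposite directions in the later states. EpiLC replicates 1, 2 and 3 had 544, 556 and 567 CPM, aEpiLCs 422, 393 and 299.5 CPM, and pEpiLCs 649, 768 and 802 CPM. The 3 states did not overlap, with aEpiLCs lowest and pEpiLCs highest. Lama5 fell in aEpiLCs relative to EpiLCs by 0.60 on the log2 scale (SE 0.0965, adjusted p = 0.000230) and rose in pEpiLCs relative to EpiLCs by 0.41 (SE 0.0786, adjusted p = 0.00524). Between pEpiLC and aEpiLC the log2 difference was 0.98 (SE 0.137, adjusted p = 0.00407), just under the fold limit, and it passed this limit without pEpiLC replicate 1 (1.07), aEpiLC replicate 1 (1.09) or aEpiLC replicate 2 (1.03). A lower RNA level per cell and fewer cells that express a gene cannot be told apart in these bulk libraries, here or for any other gene.

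Lama1 (chromosome 17), the alpha chain of the earliest embryonic basement membranes, rose in aEpiLCs. It had 6.66, 5.63 and 6.75 CPM in EpiLCs, 22.2, 14.6 and 13.6 CPM in aEpiLCs and 12.6, 2.67 and 2.79 CPM in pEpiLCs. All aEpiLC libraries lay above all others, and pEpiLC replicate 1 lay above the EpiLCs while replicates 2 and 3 lay below them. The log2 fold change was 1.39 for aEpiLC over EpiLC (SE 0.178, adjusted p = 3.34e-05), a call that was lost with all 9 libraries in one fit. For pEpiLC against aEpiLC it was -1.49 (SE 0.579, adjusted p = 0.127), not called, but -1.79 and called lower with the replicate number as a block. Without pEpiLC replicate 1 it was -2.63 (adjusted p = 1.06e-05) and called lower. Against EpiLC, the pEpiLC value was -0.08 (adjusted p = 0.922) with all libraries and -1.22 (adjusted p = 6.76e-05), called lower, without that replicate.

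Lama3 and Lama4 were low and changed in opposite directions from EpiLC. Lama3, the alpha chain of the laminin that anchors epidermis, had between 2.77 and 3.18 CPM in EpiLCs, 0.506 and 1.55 CPM in aEpiLCs, and 0.838 and 1.49 CPM in pEpiLCs. It fell in aEpiLCs (log2 fold change -1.46, SE 0.317, adjusted p = 0.00204) and in pEpiLCs (-1.22, SE 0.271, adjusted p = 0.00925), the latter call being lost without pEpiLC replicate 3 (-0.997). Lama4, found mostly in mesenchymal and vessel basement membranes, rose from between 1.09 and 1.303 CPM in EpiLCs to between 2.26 and 2.95 CPM in aEpiLCs (1.17, SE 0.247, adjusted p = 0.00166). In pEpiLCs it had 1.92, 2.89 and 2.19 CPM, a log2 fold change from EpiLC of 0.99 (SE 0.255, adjusted p = 0.0165) that was 1.12, and called, without pEpiLC replicate 1, and was also called without pEpiLC replicate 3 or EpiLC replicate 2. Lama2, the muscle laminin alpha chain, did not exceed 3 counts in any EpiLC library and had a mean of 0.461 CPM in aEpiLCs, at least 3.30-fold higher, without a test.

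Lamb1 and Lamc1, the beta and gamma chains of most embryonic laminins, were called in no comparison. Lamb1 (chromosome 12) had 206, 209 and 209.5 CPM in EpiLCs, 211, 200.1 and 184 CPM in aEpiLCs and 441, 252 and 246 CPM in pEpiLCs. Every pEpiLC library lay above every other, replicate 1 by the widest margin. Its log2 difference between pEpiLC and aEpiLC was 0.65 (SE 0.220, adjusted p = 0.0889), which became 0.32 (adjusted p = 0.00872) once replicate 1 was left out. Against EpiLC it was 0.59 (SE 0.214, adjusted p = 0.0575), and 0.25 (adjusted p = 0.000610) without that replicate. Lamc1 had between 180 and 190.1 CPM in EpiLCs, 166 and 206 CPM in aEpiLCs and 198 and 229 CPM in pEpiLCs, and its increase from EpiLC to pEpiLC was small (0.20, SE 0.0645, adjusted p = 0.0411). Lamb2, a beta chain of nerve, muscle and kidney basement membranes, had between 15.2 and 23.6 CPM and fell in pEpiLCs relative to EpiLCs (-0.44, SE 0.102, adjusted p = 0.0105), under the fold limit.

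Lamb3, a beta chain of the laminin that anchors epidermis, had between 1.18 and 3.35 CPM over all libraries and was called in no comparison, with a log2 fold change of 0.57 (SE 0.275, adjusted p = 0.107) in aEpiLCs over EpiLCs. Lamc3 stayed under 1 CPM in every library and was called higher in pEpiLCs than in EpiLCs (1.33, SE 0.415, adjusted p = 0.0332). This call was lost with DESeq2, without a count filter and with the replicate number as a block. It was also lost without any of 5 single libraries (each pEpiLC replicate, EpiLC replicates 2 and 3).

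The nidogens and fibronectin completed the matrix genes. Nid1 rose from 5.09, 4.70 and 4.66 CPM in EpiLCs to 7.18, 9.36 and 8.14 CPM in aEpiLCs (log2 fold change 0.76, SE 0.149, adjusted p = 0.000985), under the fold limit. In pEpiLCs it had 13.7, 7.80 and 7.87 CPM and was called higher than in EpiLCs at 1.02 (SE 0.244, adjusted p = 0.0126), but not without pEpiLC replicate 1 (0.70), EpiLC replicate 2 (1.001) or EpiLC replicate 3 (0.99), nor with all 9 libraries in one fit. Nid1 was also not called with the replicate number as a block (0.97). Nid2, far more abundant at between 130.1 and 224 CPM, fell in aEpiLCs (-0.57, SE 0.0848, adjusted p = 0.000109). Exons of Nid2 overlap those of Rtraf on the opposite strand, which had between 153 and 198 CPM, and as the strandedness of the libraries is not given in the sources used here, reads of the pair may not be separable.

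Fn1 (chromosome 1, 71585520 to 71653200), which encodes fibronectin, turned on a single library. EpiLC replicates had 226, 233 and 237 CPM, aEpiLC replicates 150.1, 156 and 118 CPM, and pEpiLC replicates 1756, 146 and 144 CPM. Without replicate 1 the pEpiLC libraries lay within the range of the aEpiLCs and below all EpiLCs. Relative to EpiLC, Fn1 fell in aEpiLCs (log2 fold change -0.73, SE 0.0866, adjusted p = 1.70e-05), but the adjusted p was 0.496 with all 9 libraries in one fit. The difference of pEpiLC from aEpiLC was 2.27 (SE 0.934, adjusted p = 0.146) with all libraries and 0.03 (adjusted p = 0.882) without replicate 1, and that from EpiLC changed sign, from 1.56 (adjusted p = 0.198) to -0.68 (adjusted p = 8.68e-08). Vtn, a plasma protein that binds the same class of integrins, had at most 0.0938 CPM in any library and was below the detection limit throughout.

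**Figure D2:**
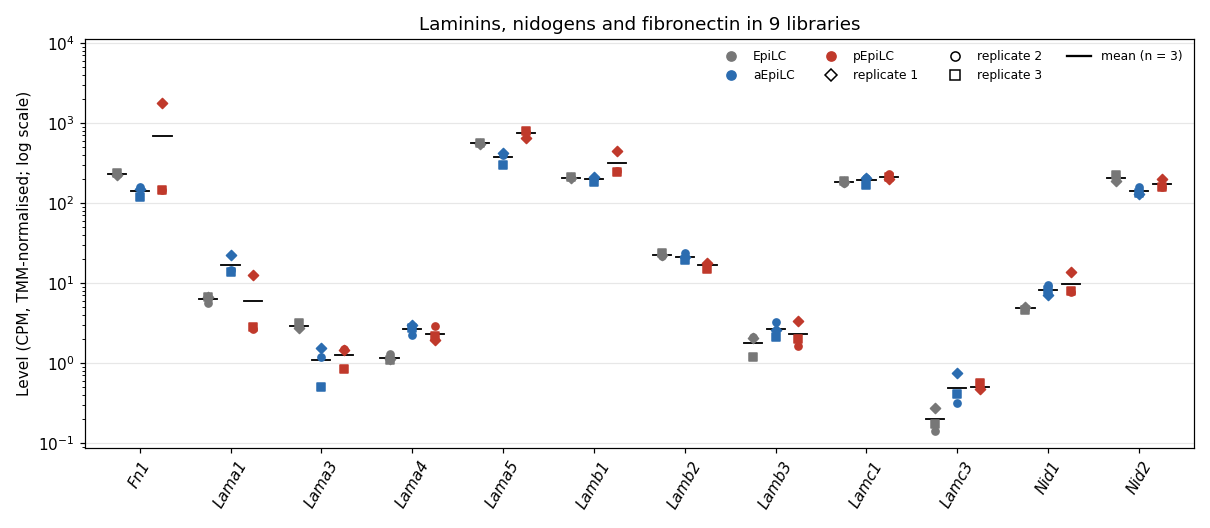
Levels (CPM, log scale) of 12 laminin, nidogen and fibronectin genes in each of 9 libraries, with a bar at the mean of 3 libraries per state and the marker shape giving the replicate. Lama2 and Vtn are left out because some libraries had 0 counts, and the diamond of pEpiLC replicate 1 stands far above replicates 2 and 3 for Fn1 and Lama1.

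Among the receptors, Itgb1, the beta chain shared by the laminin, collagen and most fibronectin receptors, was the most abundant. It had 204, 184 and 175 CPM in EpiLCs, 286, 287 and 282 CPM in aEpiLCs and 218, 231 and 229.9 CPM in pEpiLCs. The states did not overlap, with EpiLCs lowest and aEpiLCs highest. Itgb1 rose in aEpiLCs (0.59, SE 0.0628, adjusted p = 6.52e-06) and, less, in pEpiLCs (0.27, SE 0.0659, adjusted p = 0.0144), and was lower in pEpiLCs than in aEpiLCs (-0.34, SE 0.0555, adjusted p = 0.00765), each below the fold limit.

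Itga3 and Itga6, the alpha chains of the main laminin receptors, fell in pEpiLCs. Itga3 (chromosome 11) had 108, 100.1 and 128 CPM in EpiLCs, 91.8, 109 and 113 CPM in aEpiLCs and 13.9, 42.9 and 37.1 CPM in pEpiLCs. Itga6 (chromosome 2) had 112, 104 and 123 CPM in EpiLCs, 127, 116 and 113 CPM in aEpiLCs and 34.3, 55.8 and 50.4 CPM in pEpiLCs. For both genes the EpiLC and aEpiLC libraries overlapped and every pEpiLC library lay below them, replicate 1 lowest. The log2 fold change of pEpiLC against aEpiLC was -1.75 for Itga3 (SE 0.348, adjusted p = 0.0161) and -1.35 for Itga6 (SE 0.163, adjusted p = 0.00216). Leaving out pEpiLC replicate 1 gave -1.39 and -1.17. The call of Itga3 in this comparison was lost without any of the 3 aEpiLC replicates, at an adjusted p of up to 0.0704, and that of Itga6 held throughout. Against EpiLC, Itga3 fell by 1.84 (SE 0.350, adjusted p = 0.00499) and Itga6 by 1.28 (SE 0.165, adjusted p = 0.00104), and without pEpiLC replicate 1 the log2 fold changes were -1.49 and -1.10. Itgb4, the partner of Itga6 in hemidesmosomes, had between 2.87 and 6.61 CPM and fell in pEpiLCs relative to EpiLCs by 0.55 (SE 0.184, adjusted p = 0.0433), a value that no longer passed without pEpiLC replicate 1 (adjusted p = 0.0561). Itga7, a further laminin receptor chain typical of muscle, had between 0.482 and 1.06 CPM and passed no test.

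Itga1, a receptor chain for collagen and laminin, and Itga9, which binds tenascin and other matrix proteins, rose in both later states. Itga1 (chromosome 13, 114953096 to 115101964) had 1.90, 1.26 and 2.18 CPM in EpiLCs, 9.71, 7.60 and 6.26 CPM in aEpiLCs and 36.4, 19.1 and 15.3 CPM in pEpiLCs. The 3 states followed each other without overlap. The log2 fold change was 2.12 for aEpiLC over EpiLC (SE 0.228, adjusted p = 6.93e-06), 3.72 for pEpiLC over EpiLC (SE 0.385, adjusted p = 0.000463) and 1.58 for pEpiLC over aEpiLC (SE 0.337, adjusted p = 0.0206). The last 2 were 3.26 and 1.12 without pEpiLC replicate 1, and the difference from aEpiLC was not called without any of the 3 aEpiLC replicates. Its exons overlap those of Gm49395 on the same strand, which had at most 2.14 CPM. Itga9 had 2.91, 1.40 and 1.31 CPM in EpiLCs, 9.47, 7.01 and 7.73 CPM in aEpiLCs and 11.3, 8.98 and 9.59 CPM in pEpiLCs. It rose by 2.09 (SE 0.257, adjusted p = 2.24e-05) and 2.41 (SE 0.309, adjusted p = 0.00103) on the log2 scale from EpiLC, and its later states overlapped (0.29, adjusted p = 0.281).

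Itga8, a receptor chain for fibronectin, nephronectin and other ligands with an RGD motif, was highest in pEpiLCs. It had 1.43, 1.58 and 1.13 CPM in EpiLCs, 2.81, 2.44 and 2.21 CPM in aEpiLCs and 20.64, 4.12 and 4.66 CPM in pEpiLCs. The states did not overlap, and pEpiLC replicate 1 stood well above replicates 2 and 3. It was called higher in pEpiLCs than in EpiLCs (2.82, SE 0.665, adjusted p = 0.0118), with a value of 1.66 without pEpiLC replicate 1 and no call without EpiLC replicate 3. Relative to aEpiLC the difference of 1.97 (SE 0.625, adjusted p = 0.0733) was not called, and it was 0.81 (adjusted p = 0.0179) without replicate 1. DESeq2, edgeR's likelihood ratio test, the fit of all 9 libraries and the fit without pEpiLC replicate 2 called it. Its opposite-strand neighbour E030013I19Rik had at most 1.29 CPM.

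The remaining receptors for fibronectin and vitronectin showed smaller differences. Itga5, the classical fibronectin receptor chain, had 31.3, 35.2 and 34.5 CPM in EpiLCs, 25.1, 32.0 and 31.3 CPM in aEpiLCs and 29.5, 19.5 and 20.4 CPM in pEpiLCs, and fell in pEpiLCs relative to EpiLCs (-0.55, SE 0.164, adjusted p = 0.0297; -0.76 without pEpiLC replicate 1). Itgav, which pairs with several beta chains in vitronectin receptors, had between 24.8 and 28.7 CPM in EpiLCs, 30.8 and 39.2 CPM in aEpiLCs and 33.0 and 56.0 CPM in pEpiLCs, and rose in aEpiLCs (0.35, adjusted p = 0.0136) and pEpiLCs (0.69, adjusted p = 0.0233; 0.43 without pEpiLC replicate 1). Itgb5 (19.8 to 20.5 CPM in EpiLCs) rose in aEpiLCs (36.3 to 39.0 CPM, log2 fold change 0.90, SE 0.0772, adjusted p = 9.43e-07) and in pEpiLCs (34.7 to 37.9 CPM, 0.86, SE 0.0781, adjusted p = 0.000273), and these later states overlapped. Itgb8, the other Itgav partner that activates latent TGF-beta, had 2.13, 2.84 and 2.61 CPM in EpiLCs, 7.74, 9.13 and 6.07 CPM in aEpiLCs and 5.17, 4.29 and 3.54 CPM in pEpiLCs, so that aEpiLCs were highest and no state overlapped with another. It was called higher in aEpiLCs than in EpiLCs (1.58, SE 0.195, adjusted p = 2.32e-05), and its lower level in pEpiLCs than in aEpiLCs (-0.83, SE 0.219, adjusted p = 0.0413) and higher level than in EpiLCs (0.77, adjusted p = 0.0248) were under the fold limit. Itgb3 stayed under 1 CPM in all libraries.

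Itga4, the receptor chain for fibronectin and VCAM1, was also highest in aEpiLCs. It had 4.30, 4.19 and 3.39 CPM in EpiLCs, 8.77, 9.32 and 6.53 CPM in aEpiLCs and 2.06, 3.37 and 3.40 CPM in pEpiLCs. The aEpiLC libraries lay above all others. Itga4 rose in aEpiLCs over EpiLCs by 1.04 (SE 0.174, adjusted p = 0.000300), a fold that fell short of the limit without aEpiLC replicate 1 or 2 or EpiLC replicate 3 (0.93 to 0.99), and was lower in pEpiLCs than in aEpiLCs (-1.49, SE 0.243, adjusted p = 0.00800; -1.28 without pEpiLC replicate 1) in all 13 alternatives. Its pEpiLC and EpiLC libraries overlapped (-0.43, adjusted p = 0.183).

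Integrin chains named for leukocytes were detected at low levels. Itgb2, their common beta chain, had 0.463, 0.419 and 0.479 CPM in EpiLCs, 1.36, 0.814 and 0.598 CPM in aEpiLCs and 4.45, 2.15 and 2.33 CPM in pEpiLCs. It was called higher in pEpiLCs than in EpiLCs (2.69, SE 0.379, adjusted p = 0.00148) and than in aEpiLCs (1.67, SE 0.420, adjusted p = 0.0352), the latter not without pEpiLC replicate 3 or any aEpiLC replicate. Without pEpiLC replicate 1 these values were 2.28 and 1.27. Relative to EpiLC, its alpha partners moved the other way. Between pEpiLC and aEpiLC, Itgam was not called (-1.27, SE 0.531, adjusted p = 0.151) and Itgal was not tested. Itgam had 4.30, 6.28 and 2.96 CPM in EpiLCs, 1.97, 2.22 and 1.29 CPM in aEpiLCs and 0.192, 1.14 and 0.931 CPM in pEpiLCs, and fell by 1.32 (SE 0.288, adjusted p = 0.00214) and 2.57 (SE 0.529, adjusted p = 0.00690) from EpiLC, the latter log2 fold change being -2.12 without pEpiLC replicate 1. Itgal had 0.786, 1.21 and 0.914 CPM in EpiLCs and 3 counts or fewer in each pEpiLC library, at least 6.75-fold lower (adjusted p = 0.00132). In aEpiLCs, Itgal had between 0.230 and 0.469 CPM (-1.40, SE 0.399, adjusted p = 0.0112), a call that was lost without aEpiLC replicate 3 or EpiLC replicate 2. The pan-leukocyte marker Ptprc and the macrophage marker Csf1r had 3 counts or fewer in every library. Itgb7 (1.40 to 3.79 CPM) fell in aEpiLCs under the fold limit (-0.76, SE 0.278, adjusted p = 0.0368), although it was called without aEpiLC replicate 1, and its partner Itgae (0.644 to 1.68 CPM), Itga10 (0.559 to 1.44 CPM) and Itga2b (0.362 to 1.53 CPM) passed no test. Itga2 and Itga11, both collagen receptor chains, had at most 0.235 CPM.

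**Figure D3:**
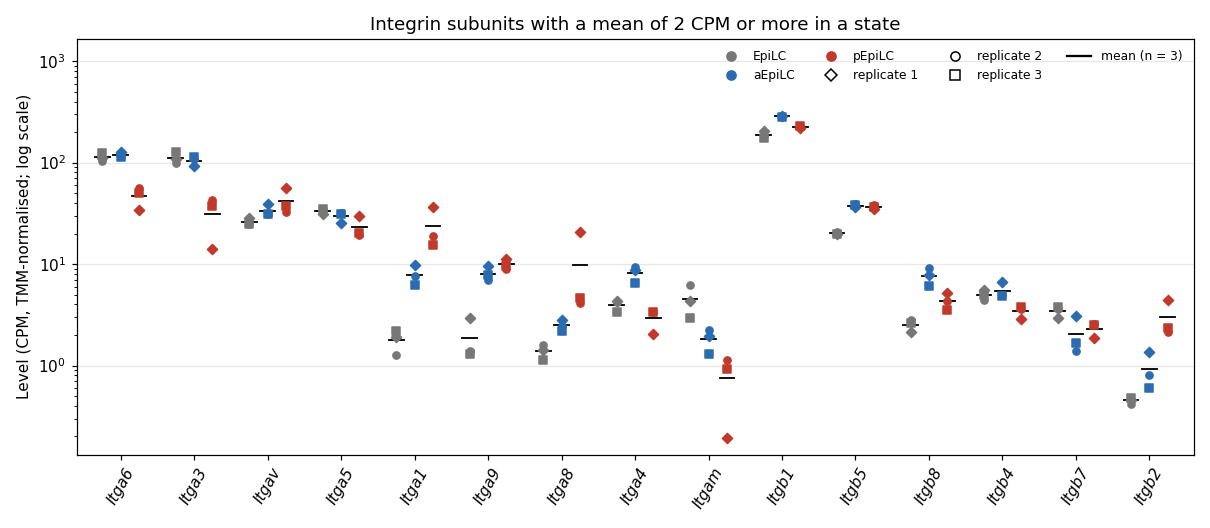
Levels (CPM, log scale) of the 15 integrin chains with a mean of at least 2 CPM in a state, in each of 9 libraries, with a bar at the mean of 3 libraries per state. The pEpiLC points of Itga3 and Itga6 lie below all others, and those of Itga1 lie above all others.

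To set levels of different genes side by side, CPM was divided by the kilobases of merged exons of each gene. On this per-length scale Lama5 made up 97.9% ± 0.122 of the summed laminin alpha chains in EpiLCs (SD, n = 3), 94.0% ± 0.913 in aEpiLCs and 98.5% ± 1.10 in pEpiLCs, Lama1 being most of the rest in aEpiLCs (4.98% ± 0.820). Lamb1 made up 84.0% ± 0.341, 83.6% ± 1.28 and 90.7% ± 1.91 of the beta chains in the same order. The alpha chains summed to 49.8 ± 1.05, 34.7 ± 6.06 and 65.9 ± 6.48 CPM per kb in EpiLCs, aEpiLCs and pEpiLCs.

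The summed integrin alpha chains were 44.1 ± 3.10 CPM per kb in EpiLCs, 44.0 ± 1.02 in aEpiLCs and 24.2 ± 0.651 in pEpiLCs (SD, n = 3), and every pEpiLC library lay below every other. Itga3 and Itga6 together had 32.1 ± 3.51, 31.5 ± 1.16 and 10.7 ± 3.92 CPM per kb, while Itga1, Itga8 and Itga9 together had 0.527 ± 0.130, 1.81 ± 0.283 and 3.89 ± 2.02. In pEpiLC replicates 1, 2 and 3, Itga3 and Itga6 had 6.24, 13.7 and 12.1 CPM per kb and the other 3 genes 6.22, 2.752 and 2.701, so on merged exons the sums were nearly equal in replicate 1 only. This near equality depended on the length used. With the longest coding transcript as length, Itga3 and Itga6 held 8.12% and 22.5% of the alpha chains in replicate 1. Itga1, Itga8 and Itga9 then held 9.40%, 10.1% and 4.54%. Itga3 was the largest alpha chain at 44.3% ± 2.45 in EpiLCs and 41.5% ± 3.60 in aEpiLCs, ahead of Itga6 at 28.5% ± 0.552 and 29.9% ± 2.51, but with the length of the longest coding transcript in place of merged exons the order turned, to 35.9% and 33.1% for Itga3 and 41.0% and 42.4% for Itga6. In pEpiLCs the share of Itga3 was 22.7% ± 11.2, that of Itga6 21.5% ± 5.28, that of Itga5 19.3% ± 4.36 and that of Itgav 16.2% ± 4.48, and their order depended on the library and on the length used. In pEpiLC replicates 2 and 3, Itga3 held 30.6% and 27.7%, Itga6 25.2% and 23.8%, Itga5 16.1% and 17.7%, and Itgav 12.5% and 14.9%. In replicate 1, Itga5 (24.3%) and Itgav (21.2%) lay above Itga6 (15.4%) and Itga3 (9.91%). With the longest coding transcript as length, Itga6 held 22.5%, 36.0% and 34.1% in pEpiLC replicates 1, 2 and 3 and lay above Itga3 (8.12%, 24.5% and 22.3%) in each, and in replicate 1 it lay level with Itgav (22.5%) and above Itga5 (19.1%). The beta chains summed to 54.0 ± 3.40, 83.1 ± 1.06 and 68.4 ± 1.95 CPM per kb, and Itgb1 made up 85.02%, 84.1% and 81.0% of them. The ratio of the 11 alpha chains numbered 1 to 11, all able to pair with Itgb1, to Itgb1 itself was 0.878 ± 0.131 in EpiLCs, 0.575 ± 0.0241 in aEpiLCs and 0.356 ± 0.0127 in pEpiLCs, without overlap between states. This ratio was taken on merged exons only, and its height depends on the length used. Itga6 has 9.03 kb of merged exons but a longest coding transcript of 4.31 kb, against 4.08 and 3.82 kb for Itgb1. These sums and shares are descriptions without a test, and 3 against 3 libraries cannot go below p = 0.1 in a 2-sided exact permutation test.

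**Figure D4:**
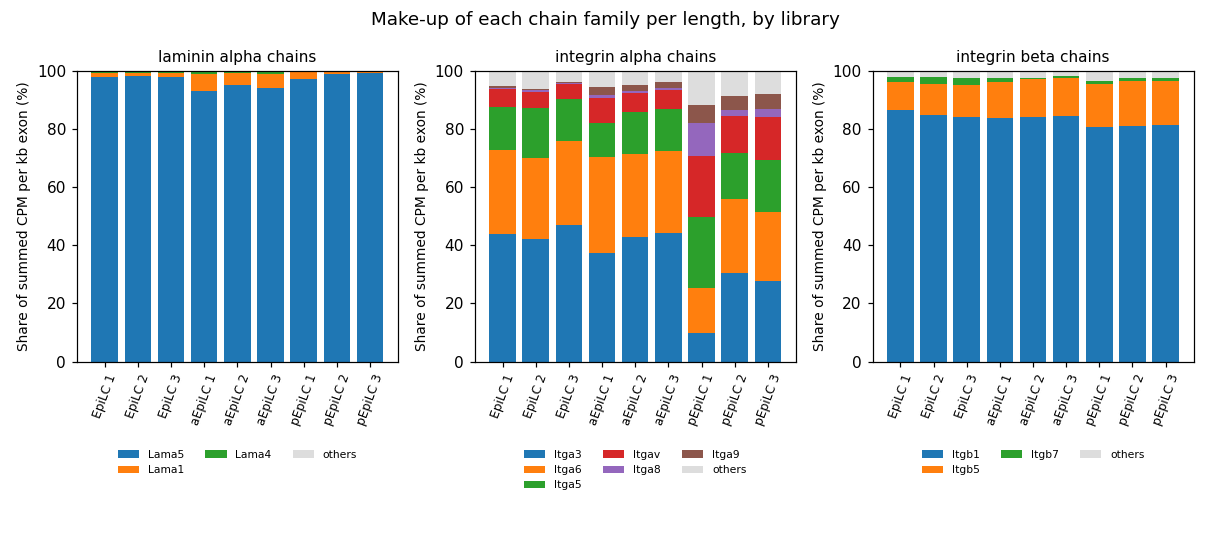
Shares (%) of the summed CPM per kb of exon held by each laminin alpha, integrin alpha and integrin beta chain, 1 stacked bar per library. Lama5 and Itgb1 fill most of their bars in all 9 libraries, while the combined share of Itga3 and Itga6 is smaller in the 3 pEpiLC libraries than in the others.

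Within pEpiLCs, 27 of the genes had a mean of at least 1 CPM, and in 5 (18.5%) replicate 1 lay over 2-fold from the mean of replicates 2 and 3, against 7.90% of 13467 genes at that level. Fn1 was 12.1-fold, Itga8 4.70-fold, Lama1 4.61-fold and Itga1 2.12-fold higher in replicate 1, and Itga3 was 2.87-fold lower. Itgb1 and Itgb5 were nearly even, at 0.945 and 0.928 of the mean of replicates 2 and 3. Beside this, Mixl1 had 647 CPM in replicate 1 and 37.6 and 36.4 CPM in the others, and T had 1093, 206 and 222 CPM. The part of the cells behind these markers in the levels of Fn1, Itga8 and Lama1 was not tested.

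**Figure D5:**
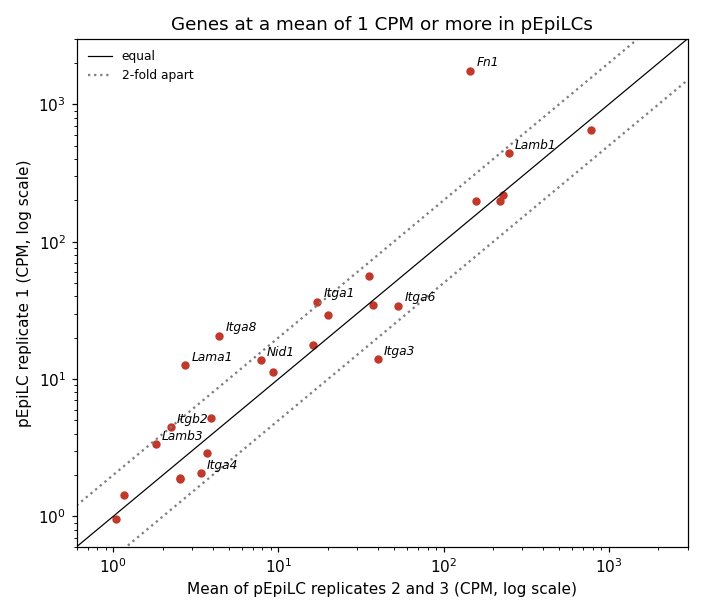
Level in pEpiLC replicate 1 (vertical axis) against the mean of pEpiLC replicates 2 and 3 (horizontal axis), both in CPM on log scales, 1 point for each of 26 genes with a mean of at least 1 CPM in pEpiLCs. The solid line marks equal levels and the dotted lines a 2-fold difference, with Fn1, Itga8, Lama1 and Itga1 above the upper line and Itga3 below the lower line.

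Genes that act with laminins and integrins were counted from lists written by function. Of 24 partners of laminin in the basement membrane and laminin receptors other than integrins, 22 were tested in aEpiLCs against EpiLCs and 12 were called higher, against 7.25% of all genes tested, with a median log2 fold change of 1.13 beside 0.00 for all genes. The call of Fras1 was lost without aEpiLC replicate 1 and that of Tinagl1 without EpiLC replicate 1. None of the 22 was called lower by edgeR or DESeq2, although 3 had an unadjusted p below 0.05 in that direction (Col18a1, Smoc1 and Dag1, named after their values were seen), and these also had an adjusted p below 0.05 and missed the fold limit only. The largest increases were those of Frem1 (3.07, SE 0.235, adjusted p = 3.09e-07) and Frem2 (2.75, SE 0.145, adjusted p = 1.26e-08), of the Fraser complex that ties epithelium to its basement membrane, and of the type IV collagen chains Col4a6 (2.91, SE 0.380, adjusted p = 3.86e-05) and Col4a5 (2.58, SE 0.314, adjusted p = 2.12e-05). In pEpiLCs against EpiLCs, 10 of 23 were called higher and Lad1 and Col18a1 lower, against 7.71% and 8.13% of all genes, with a median of 1.13, and without pEpiLC replicate 1 there were 11 higher, with Tinagl1 added, and neither of those 2 calls was made (that of Col18a1 was also lost without any single EpiLC replicate). Among those called higher in pEpiLCs than in EpiLCs, Npnt was not called without pEpiLC replicate 2 or 3 or EpiLC replicate 3. Frem2 had 5.46, 5.91 and 5.44 CPM in EpiLCs, 46.9, 36.0 and 31.5 CPM in aEpiLCs and 128, 159.9 and 149.7 CPM in pEpiLCs. It was the member called higher in pEpiLCs than in aEpiLCs (1.93, SE 0.154, adjusted p = 0.000363), 1 of 23 against 2.55% of all genes, where Sparc, a collagen-binding matrix protein, was lower (-1.35, SE 0.182, adjusted p = 0.00349) together with Lad1 and Bcam, whose calls were lost without pEpiLC replicate 1 (Bcam also without any aEpiLC replicate). These 3 of 23 compare with 4.74% of all genes. Without pEpiLC replicate 1, Sparc (-1.14) and Ntn4 (-1.17, from -0.74 with all libraries) were called lower.

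Of 37 genes of the integrin adhesion complex and of integrin regulators, membrane partners such as Cd151 and Cd9 included, most were not called. In aEpiLCs against EpiLCs, 3 of 36 were higher, namely Parva, which links integrins to actin (2.69, SE 0.122, adjusted p = 4.12e-09), Tgfb1i1 (2.20, SE 0.198, adjusted p = 1.44e-06) and Parvb (not without EpiLC replicate 1), and Tns1 and Tns2, which encode tensins, were lower, against 7.25% and 5.24% of all genes. In pEpiLCs against EpiLCs, 4 of 35 were higher (Nedd9, Parva, Zyx and Tgfb1i1) and 2 lower (Tns1, not without EpiLC replicate 3, and Bcar1), against 7.71% and 8.13% of all genes, and without pEpiLC replicate 1 there were 4 higher and 3 lower, with Fermt3 added. The adaptors Nedd9 and Bcar1, which belong to one family, moved in opposite directions between pEpiLCs and aEpiLCs. Nedd9 had 0.422, 0.452 and 0.644 CPM in aEpiLCs and 10.8, 3.16 and 3.77 CPM in pEpiLCs (3.52, SE 0.562, adjusted p = 0.00720, and 2.75 without pEpiLC replicate 1). Bcar1 had 156, 177 and 177.5 CPM in aEpiLCs and 36.6, 53.1 and 48.2 CPM in pEpiLCs (-1.90, SE 0.133, adjusted p = 0.000257). With Bcar1, Fermt1, Tgfb1i1, Fblim1 and Ptk2b made 5 of 36 called lower (4.74% of all genes), while Nedd9 was 1 of 36 called higher (2.55%). Of those lower, Fermt1, Fblim1 and Ptk2b were not called without pEpiLC replicate 1, Ptk2b also not without aEpiLC replicate 1 or 3, and Tgfb1i1 not without aEpiLC replicate 2 or 3. Parva was called lower without pEpiLC replicate 1 (-1.04, from -0.90 with all libraries), which made 3 of 36.

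Of 14 other integrin ligands in the table, 5 of 13 tested rose in aEpiLCs over EpiLCs, led by Tnc (2.75, SE 0.439, adjusted p = 0.000207), a ligand of Itga9, Thbs1 (2.65, SE 0.168, adjusted p = 6.21e-08) and Ccn1 (2.01, SE 0.164, adjusted p = 5.47e-07), and Emilin1 fell, against 7.25% and 5.24% of all genes. Tnc was low, at 0.139, 0.0931 and 0.218 CPM in EpiLCs, the first 2 at or under the detection limit. In aEpiLCs Tnc had between 0.966 and 1.13 CPM. The median log2 fold change was 0.33 for the list and 0.00 for all genes. In pEpiLCs against aEpiLCs, Spp1 (-3.10, SE 0.560, adjusted p = 0.0118; -2.61 without pEpiLC replicate 1) and Thbs1 (-2.46, SE 0.608, adjusted p = 0.0337; -1.96 without it) were lower, 2 of 13 against 4.74% of all genes and 3, with Ccn1 added, without pEpiLC replicate 1. None was called higher by edgeR, where 2 had an unadjusted p below 0.05, and 1 was by DESeq2. The call of Spp1 was lost without aEpiLC replicate 2 or 3, and that of Thbs1 without pEpiLC replicate 2 or any aEpiLC replicate. Against EpiLC, Fbn1 was called higher (1.44, SE 0.169, adjusted p = 0.000763) and Spp1 lower (-3.62, SE 0.518, adjusted p = 0.00159), each 1 of 12 against 7.71% and 8.13% of all genes, and without pEpiLC replicate 1 there were 2 in each direction, with Thbs2 added above and Emilin1 below. Spp1, which encodes osteopontin, had between 25.6 and 36.4 CPM in EpiLCs, 14.8 and 28.0 CPM in aEpiLCs and 0.527, 4.12 and 3.26 CPM in pEpiLCs.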

How the data were processed

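Bulk RNA-seq libraries of 3 states with 3 replicates each were analysed. The authors mapped paired-end reads to GRCm38 (mm10) with STAR 2.7.9a and deposited expected counts per gene symbol from RSEM 1.3.1, without normalization, per the labels and the paper's methods. Read cleaning, gene annotation and strandedness are not given in the sources used here. RSEM divides reads that map to several genes between them, so these counts need not be whole, and they were rounded here.

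Each pair of states was fitted on its 6 libraries in R 4.3.3 with edgeR 4.0.16 (TMM, filterByExpr, glmQLFit, glmQLFTest), with Benjamini-Hochberg adjustment over all genes tested and calls at an adjusted p below 0.05 with a log2 fold change of 1 or more in size. Standard errors are the log2 fold change over the root of F. CPM was normalised over the 9 libraries. GENCODE vM21 (GRCm38) gave exon lengths, positions and overlaps and held all 38 genes. Where every library of a state had at most 3 counts, a fold is a lower bound that sets the level of 3 counts per library (the highest CPM it came to) in place of that state's mean. Genes were described when called, when at 5 CPM or more in a state, or when pairing with these, and the others by range. From the lists of partner genes, up to 4 called genes per comparison with the largest change were described. 1 of the genes counted is not reported here. The genes and all lists were chosen with earlier results of these data known. Alternatives were RLE size factors, DESeq2 1.42.0, edgeR's likelihood ratio test, other filters, all 9 libraries in one fit, the replicate number as a block, each replicate left out, and another gene length. The fits were tested on simulated data. The limit of detection covers counting error only, whereas standard errors and p-values carry the spread between libraries.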

Additional observations from a re-analysis of the deposited data

How the results depend on the processing

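Leaving out single replicates gave between 0 and 3 genes called higher and between 3 and 5 called lower in pEpiLCs against aEpiLCs, between 6 and 8 higher and 2 and 4 lower in aEpiLCs against EpiLCs, and between 3 and 6 higher and 4 and 7 lower in pEpiLCs against EpiLCs. With an adjusted p below 0.05 and no limit on fold change, 12 genes were higher and 7 lower in aEpiLCs, and 13 higher and 8 lower in pEpiLCs, relative to EpiLCs. With at least 10 counts in every library, 3 genes were called lower in pEpiLCs than in EpiLCs, since Itgal and Itgam then had too few counts to be tested. With the longest coding transcript as length, of the shares of a family of Lama1, Lama5, Lamb1, Itgb1, Itga3, Itga5, Itga6 and Itgav, those that moved by more than the spread between replicates were Lamb1 in EpiLCs (89.1%), aEpiLCs (88.7%) and pEpiLCs (93.7%), Itga5 in EpiLCs (12.1%) and aEpiLCs (10.3%), Lama5 in EpiLCs (97.7%), Itgb1 in aEpiLCs (83.8%), Itga3 in EpiLCs (35.9%) and aEpiLCs (33.1%), and Itga6 in EpiLCs (41.0%), aEpiLCs (42.4%) and pEpiLCs (30.9%). Over all genes and alternatives, 1217 of 1263 log2 fold changes stayed on their side of the threshold, 15 newly passed it and 31 no longer did, and no called value changed sign.

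Whether libraries with the same replicate number form pairs was not settled. Correlations of same-numbered deviations were 0.172, 0.117 and 0.0620 between pEpiLC and aEpiLC, and those of differently numbered libraries ran from -0.138 to 0.0579. In the other comparisons the same-numbered correlations were at most 0.0336, and differently numbered ones reached 0.0816. With the replicate block, calls numbered 2 higher and 5 lower in pEpiLCs against aEpiLCs, 7 and 3 in aEpiLCs against EpiLCs, and 4 and 5 in pEpiLCs against EpiLCs. Under this block Lama1 was called lower in pEpiLCs than in aEpiLCs (-1.79), and Nid1 (0.97) and Lamc3 (1.35) were not called in pEpiLCs against EpiLCs. The causes of these changes were not tested. With 3 libraries per state and pEpiLC replicate 1 apart from the others, values of Fn1, Itga8 and Lama1 in pEpiLCs are the least certain, and genes under 1 CPM rest on few counts.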

Other observations

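Among 14 matrix proteases and their inhibitors, 13 were tested in each comparison. Adamts9, a protease that cleaves versican, had 7.96, 6.70 and 8.27 CPM in EpiLCs, 3.56, 4.07 and 3.31 CPM in aEpiLCs and 277, 94.3 and 71.0 CPM in pEpiLCs. It fell in aEpiLCs against EpiLCs by 1.08 on the log2 scale (SE 0.159, adjusted p = 0.000106) and rose in pEpiLCs by 4.27 (SE 0.543, adjusted p = 0.000985), or 3.43 without pEpiLC replicate 1. Relative to EpiLCs, 4 rose in aEpiLCs, namely Adamts1 (1.63, SE 0.154, adjusted p = 2.07e-06), the inhibitor Timp2, and the plasminogen activators Plau and Plat, and Adamts9 alone was called lower, against 7.25% and 5.24% of all genes tested. In pEpiLCs against EpiLCs, Adamts9, Plau and Timp2 were called higher and Mmp11 lower, Timp2 not without pEpiLC replicate 1 or EpiLC replicate 2 or 3, against 7.71% and 8.13% of all genes. Between pEpiLCs and aEpiLCs, Adamts9 was called higher (5.33, SE 0.581, adjusted p = 0.00142, and 4.49 without pEpiLC replicate 1) and Plat, Htra1, Adamts1 and Mmp11 lower, against 2.55% and 4.74% of all genes. Plat and Adamts1 lost this call without aEpiLC replicate 2, Mmp11 without pEpiLC replicate 3 or aEpiLC replicate 1, and Htra1 without pEpiLC replicate 2 or 3 or any aEpiLC replicate. The median log2 fold change of the list was -0.56 in this comparison, 0.59 in aEpiLCs against EpiLCs and 0.19 in pEpiLCs against EpiLCs, beside 0.01, 0.00 and 0.02 for all genes.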
